A study of Oryza sativa with 6 samples.

Results

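Ferulic acid (FA) is a phenolic acid that rice residues release into soil, and 70 genes of the rice root had a lower transcript level in FA than in water after long exposure while their mean short-exposure ratio lay close to 0. Each of 6 two-colour arrays compared roots of 6-day-old TN-67 seedlings in 50 ppm FA (red dye, Cy5) with roots of water-treated TN-67 seedlings of the same age (green dye, Cy3). Short exposure pooled RNA from 1 and 3 h (3 arrays) and long exposure was 24 h (3 arrays), and the methods state that root tips were taken and that replicates were biological. All arrays held the same cultivar and dose, and no dyes were swapped. Seedlings were 6 days old when exposure began, so FA and control roots of the long arrays were older at harvest than those of the short arrays.

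The genes were chosen on the ratios themselves, so every ratio of theirs given here is a description and carries no test. A probe with a locus name was taken where the control signal was at least 100 on all 3 long arrays, the mean log2 ratio (FA over control) after long exposure was -0.8 or less with each array below -0.4, and the mean after short exposure lay between -0.5 and 0.5. This gave 84 probes at 70 loci, of 41908 probes at 29690 loci on the array (0.236% of the loci). Where a locus passed through several probes, the probe with the highest mean signal stands for it. The signal floor left 17163 loci, so genes with a dim control signal could not enter. A total of 194 loci met the limits for long exposure. Of these, 110 had a probe with a short-exposure mean of -0.5 or less and 16 had one at 0.5 or more. In the first of these groups 1 locus was also among the 70. Os05g0405000 was in the second group through another of its probes and also among the 70.

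FA is itself made in the phenylpropanoid pathway, in which O-methyltransferases add methyl groups to phenolic rings. Type III polyketide synthases build ring compounds from malonyl-CoA units, and glycoside hydrolases of family 1 release such compounds from their sugars. Plants take up foreign or excess small molecules and inactivate them with glutathione S-transferases (GSTs), which join glutathione to them, and with membrane carriers that move the products.

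Gene descriptions came from the supplementary gene tables of the study, which describe 28 of the 70 loci. The other 42 have no description there and are called by locus name alone. The described loci were sorted by product into secondary metabolism (5 loci), detoxification (4), transport (3), protein kinases (5), response regulators (3), cell wall (3) and others (5).

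Over the 70 loci the long-exposure mean ran from -2.18 to -0.80 with a median of -0.98, which is 1.98-fold lower in FA. The median over all probes at the signal floor was -0.05 on the same scale. A total of 34 loci had a mean of -1 or less and 36 lay between -1 and -0.8. The limit cut through a dense range of values, since the 3 loci just inside it (Os07g0176600, Os05g0157300 and Os07g0126200) had means of -0.80 and the 3 just outside it (Os04g0423400, Os05g0227600 and Os01g0143900) also had means of -0.80 to 2 decimals. Of the latter, Os04g0423400 is described as an ABA/WDS induced protein and the others have no description.

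**Figure D1:**
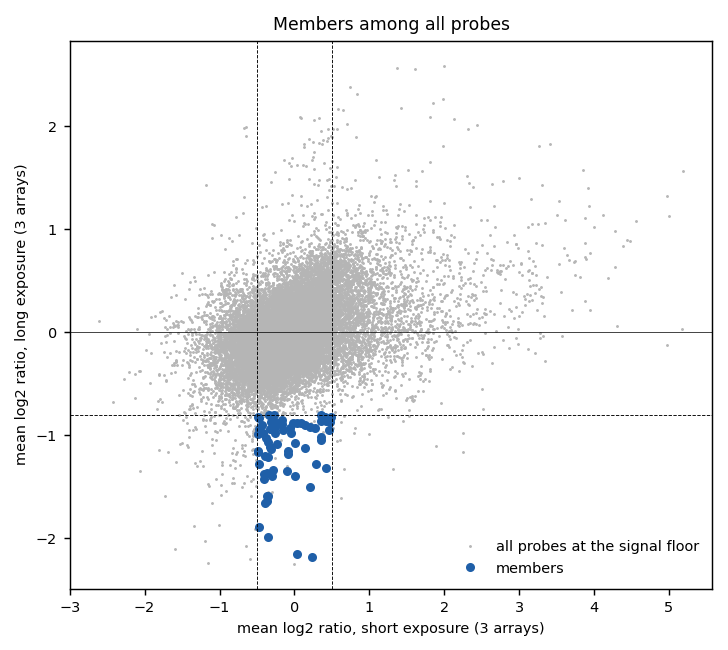
Mean log2 ratio (FA over control) after short exposure (x axis) and long exposure (y axis), each over 3 arrays, for all probes with a control signal of at least 100 on the long arrays (grey) and for the 70 loci, 1 probe each (blue); dashed lines mark the limits of the rule. The blue points fill the box below -0.8 unevenly, with 36 of the 70 between -1 and -0.8 and the lowest at -2.18.

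The name "lowered only after 24 h" holds for these loci only in the sense of the window. Their short-exposure means ran from -0.49 to 0.48 with a median of -0.25 (median over all probes at the floor, -0.11), and 47 of the 70 lay below 0. In 28 loci the short mean was below -0.3, in 31 it lay from -0.3 to 0.3, and in 11 it was above 0.3. All 3 short arrays were below 0 in 35 loci and above 0 in 15. In the limma fit of the short arrays, 67 of the loci were tested. With no limit on size, 46 of these passed at an adjusted p of 0.1 (Benjamini-Hochberg), 31 with a mean below 0 and 15 above. Over all locus probes tested at short exposure 67.0% had such a p, a share close to that of these loci. The rule used these short means, so the count is given as a description.

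With the limits of the study's methods (adjusted p under 0.1 by Benjamini-Hochberg in limma, and a ratio of 2-fold or more), 34 of 69 tested loci were called lower after long exposure and 0 higher. Over all tested loci 0.611% were called lower and 1.89% higher. In the difference between exposures (long minus short, all 6 arrays), 33 of 69 were called lower, where 5.72% of all loci were. At short exposure none of the 67 tested was called in either direction (2.57% of all loci were called lower and 7.04% higher). The rule used both means, so these counts follow from the choice of the loci. All 3 long ratios lay below all 3 short ratios in 64 of the 70, and in 23.3% of all probes at the floor. Os03g0189600 was not tested because 2 of its spots had been marked as non-uniform or as outliers; 5 of the 70 loci had such a spot on some array, and their ratios are given here from all spots.

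The lowest mean of the 70 belonged to Os12g0614800, a protein kinase of the WAKa group, which holds kinases of the wall-associated type. Its log2 ratios were -1.34, -1.94 and -3.26 on long replicates 1, 2 and 3, and 0.40, 0.69 and -0.37 on short replicates 1, 2 and 3. The long arrays were all far below the short ones, and replicate 3 set much of the mean of -2.18 ± 0.98 (SD, n = 3). The short ratios of this gene rest on dim spots: its control signal was 22.9, 22.5 and 29.7 on the short arrays, with both channels well above background on none of these arrays, against 132, 171 and 335 on the long arrays. In the FA channel its signal was 30.3, 36.3 and 23.0 after short and 51.8, 44.6 and 35.0 after long exposure. Both channels were brighter on the long arrays, the control channel by more, and the gene met the signal floor only because it was set on the long arrays. Its call as lower, the single one among 3 tested WAKa loci, was lost by the methods' t-test and with a signal of 100 required in both channels on every array.

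Among secondary metabolism genes, Os11g0306400, with an O-methyltransferase domain, had log2 ratios of -1.78, -1.98 and -2.69 on the long arrays. On the short arrays they were -0.46, 0.39 and 0.16, so the groups stood well apart. Its mean of -2.15 ± 0.48 (SD, n = 3) is 4.44-fold lower in FA, and its other probe gave -2.25. The control signal was 4732, 4811 and 7737 on the short arrays and 10571, 12006 and 21015 on the long arrays, while the FA signal was 3448, 6290 and 8652 on the former and 3079, 3034 and 3258 on the latter.

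The gene beside it in locus order, Os11g0307300, is described as a herbicide safener binding protein. In maize the protein of that name resembles O-methyltransferases. Its log2 ratios were -2.15, -1.63 and -1.88 after long exposure and -0.72, -0.01 and -0.69 after short exposure. No long array overlapped a short one, but at -0.48 ± 0.40 (SD, n = 3) its short mean was near the lower edge of the window. The control signal was 2605 to 3231 on the short arrays and 8007 to 11543 on the long arrays, whereas the FA signal had ranges of 1616 to 2666 and 2298 to 3130.

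For the type III polyketide synthase Os10g0167900, a family that includes chalcone synthase, the log2 ratios were -1.74, -1.77 and -2.47 on the long arrays. On the short arrays they were -0.66, -0.24 and -0.16. All 6 were below 0, with the long arrays lower by more than 1 unit than any short one, and the long mean was -1.99 ± 0.41 (SD, n = 3), 3.98-fold lower in FA.

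Both glycosidase genes came next. Os09g0491100, a beta-primeverosidase, which cuts disaccharides from glycosides in tea leaves, was measured by 4 probes, and all 4 met the rule with long means of -1.59, -1.55, -1.55 and -1.58. Its brightest probe gave -1.52, -1.36 and -1.89 on the long and -0.55, -0.05 and -0.47 on the short arrays. The other, Os11g0184200, a family 1 glycoside hydrolase, gave -1.50, -1.32 and -2.15 on the long arrays and -0.69, 0.60 and -1.06 on the short arrays. The short arrays of this second gene disagreed in sign, and its short mean of -0.39 ± 0.87 (SD, n = 3) is the average of 2 low values and 1 high value.

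Of the 4 detoxification genes, 3 encode GSTs. Os10g0530200 (GSTU26) had log2 ratios of -1.18, -1.12 and -1.74 on the long arrays and -0.37, -0.04 and 0.11 on the short arrays. Its neighbour Os10g0530000 (GSTU27) had -0.85, -0.86 and -0.88 after long exposure, the closest agreement among the 70 loci, and 0.65, 0.46 and 0.15 after short exposure. For Os01g0371200 (GSTF1) the values were -0.94, -0.79 and -1.06, against -0.05, -0.05 and -0.08. None of these 3 had a long array within the range of its short arrays, and GSTU27 was above 0 on every short array. Under normexp background correction with loess, GSTU27 and GSTF1 did not meet the rule, with long means of -0.66 and -0.67. Another probe of GSTF1 missed the rule with a long mean of -0.78.

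The fourth, Os03g0829200, a soluble epoxide hydrolase, adds water to epoxides. It gave -1.22, -1.03 and -1.70 after long and 0.24, 0.59 and 0.44 after short exposure, so the sign was opposite on all arrays of the 2 exposures. A second probe for the locus was near background, with a control signal of 7.79 on average after long exposure.

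The rule chose the 3 GST genes for a low long-exposure ratio, so their place below most of their family follows from that choice. In the GST list of the supplementary tables, 59 loci were tested after long exposure through their brightest probe (median log2 ratio 0.27). Of these, 8 were called higher (1.89% of all tested loci were) and 2 lower (0.611%). The 2 lower calls were GSTU26 and Os01g0371500 (GSTF10), which is not among the 70: its log2 ratio was -1.04 ± 0.14 (SD, n = 3; adjusted p = 0.0011, limma across all probes), but its short mean of -0.57 ± 0.07 (SD, n = 3) lay outside the window. At short exposure 24 of 57 tested GST loci were called higher and 0 lower, where 7.04% and 2.57% of all tested loci were. Without long replicate 3, 1 GST locus was called lower. By the adjusted p alone, 31 were higher after long exposure and 11 lower, where 31.9% of all locus probes were lower by that p. The share of all locus probes that were higher by that p is not given here. Counts of higher loci by that p, in this and the other gene sets, therefore have no background and are not read as family results.

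**Figure D2:**
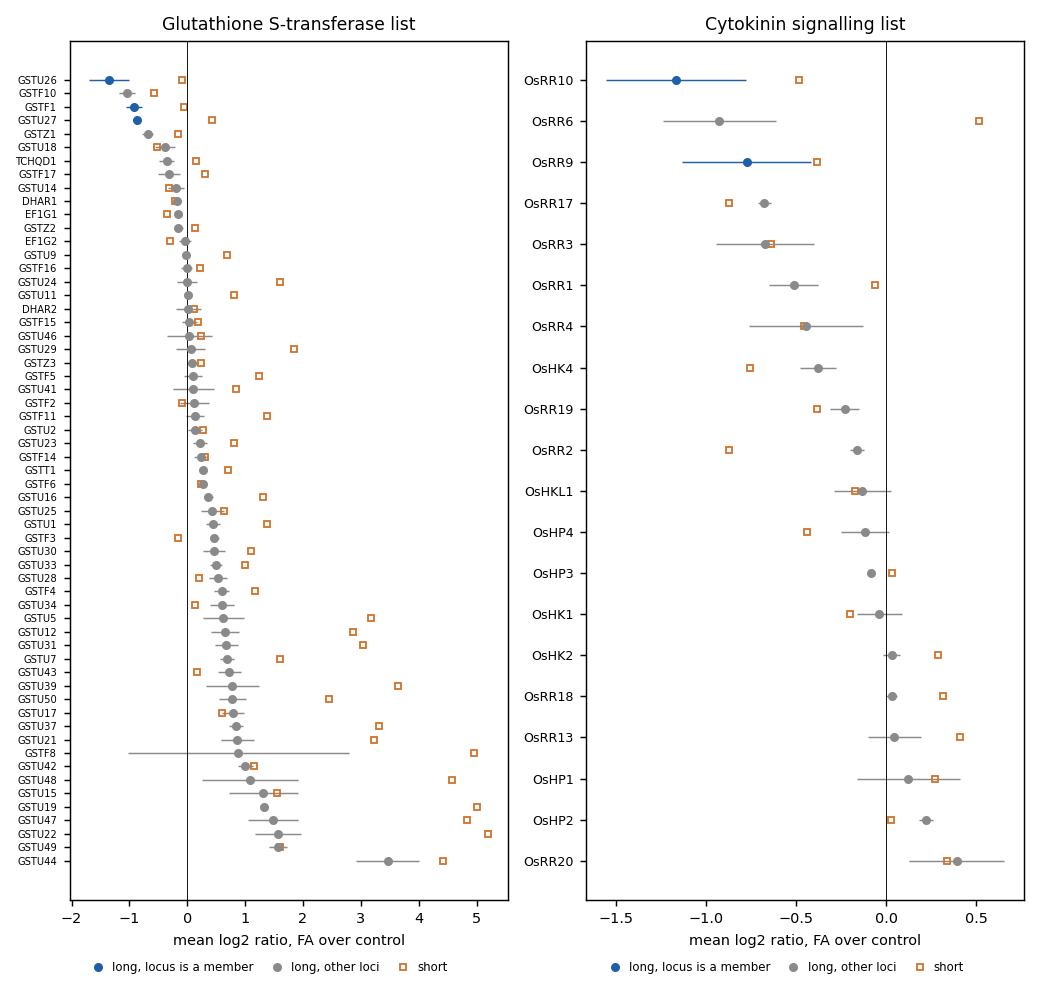
Mean log2 ratio (FA over control) of each tested locus of the GST list (left) and the cytokinin signalling list (right) through its brightest probe, with circles and SD bars for long exposure (2 or 3 arrays) and open squares for short exposure; the loci described here are blue. The 3 blue GST genes, which the rule chose for a low long mean, are among the 4 lowest of 59. Most other GST genes lie near or above 0. OsRR9 is plotted at -0.78 because its brightest probe is not the one that met the rule.

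Carrier genes were few among the 70. Os02g0112600, a membrane transporter of the major facilitator superfamily (MFS), had log2 ratios of -1.58, -1.20 and -1.41 after long exposure and 0.04, 0.09 and -0.12 after short exposure, groups that were more than 1 unit apart. Its signal was lower in both channels on the long arrays: the control channel went from 745 to 1248 down to 163 to 262, and the FA channel from 684 to 1282 down to 55.8 to 98.4. Of 92 tested MFS loci it was the single one called lower after long exposure (0.611% of all tested loci), with 2 called higher (1.89%). No MFS locus was called lower under normexp and loess, or with a signal of 100 required in both channels on every array.

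Os12g0503000, an allantoin permease, carries a nitrogen-rich ureide and is listed in the drug/metabolite transporter superfamily. It had -1.17, -1.29 and -1.39 on the long and 0.16, 0.32 and 0.38 on the short arrays. These values came from the dimmest of its probes, with a control signal of 116 after long exposure, and the locus has 5 other probes whose long means ran from -0.74 to -0.42. All 6 probes were below 0, but only 1 met the rule, and the locus did not meet it under normexp background correction with loess. In Os02g0650300, an oligopeptide transporter (OPT) family gene, the long ratios were -1.11, -0.71 and -1.01 and the short ones -0.59, 0.02 and -0.87, so that the ranges overlapped. None of 73 tested drug/metabolite transporter loci and none of 13 OPT loci was called in either direction after long exposure by limma. Without the fold limit 27 and 5 were lower, and 21 and 1 higher, at an adjusted p under 0.1. By that p 31.9% of all locus probes were lower.

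Protein kinases were represented by 5 loci. Os08g0540400 (OsCPK21), a calcium-dependent protein kinase, which carries its calcium sensor in the same polypeptide, had log2 ratios of -1.35, -1.34 and -1.82 on the long arrays and 0.16, 0.29 and 0.17 on the short arrays. The exposures were clearly apart, with a long mean of -1.50 ± 0.27 and a short mean of 0.21 ± 0.07 (SD, n = 3 each). Of 21 tested CPK genes it alone was called lower after long exposure (0.611% of all tested loci), and none was called higher (1.89%). Without the fold limit 12 were lower and 1 higher, where 31.9% of all locus probes were lower. The median over the 21 was -0.25.

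Os05g0136200 (CIPK17), a kinase of the family that works with calcineurin B-like calcium sensors, had -0.89, -0.76 and -1.06 after long and -0.25, -0.20 and -0.32 after short exposure. The RLCK-IV kinase Os03g0148700, a receptor-like cytoplasmic kinase, had -1.09, -0.64 and -1.07, against 0.38, 0.26 and 0.18. Both loci had 2 probes on the array and both probes of each met the rule. The NEK-like kinase Os07g0176600 was nearest to the limit, with -0.88, -0.53 and -0.997 after long and -0.73, -0.27 and -0.01 after short exposure. Its ranges overlapped, and a brighter probe of the same locus gave a long mean of -0.47.

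Type-A response regulators, genes that cytokinin induces and that dampen its signalling, were 2 of the 70. Os12g0139400 (OsRR10) had log2 ratios of -0.72, -1.40 and -1.39 on the long arrays and -0.14, -0.42 and -0.89 on the short arrays. Os11g0143300 (OsRR9) had -0.76, -1.26 and -1.19, against -0.06, -0.52 and -0.48. In both genes long replicate 1 was the highest of the long arrays and short replicate 1 the highest of the short arrays, and for OsRR10 the ranges overlapped. The pair belongs to a segment that chromosomes 11 and 12 share as near copies, so the probes may not tell them apart. A brighter probe for OsRR9 gave -0.78 as its long mean.

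The cytokinin signalling list had 20 tested loci, with a median log2 ratio of -0.15 after long exposure. None was called higher (1.89% of all tested loci were), and OsRR10 was called lower (0.611% were). That call was lost by the methods' t-test (0 loci) and there were 2 lower calls without long replicate 1. Of the 18 loci of the list outside the 70, 0 were called by limma, and by the adjusted p alone 8 were lower and 2 higher, where 31.9% of all locus probes were lower by that p. OsRR6 came closest to the 2 genes in size, with -0.93 ± 0.31 after long exposure (SD, n = 3; adjusted p = 0.0028, limma), but with 0.51 ± 0.20 after short exposure (SD, n = 3) it fell just outside the window. OsRR17 and OsRR3 were lower at both times, with long means of -0.68 and -0.67 and short means of -0.87 and -0.64.

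The third response regulator gene, Os03g0284100, is described as pseudo-response regulator 9, a name given to components of the circadian clock. Its ratios were -0.74, -0.97 and -0.77 on the long and -0.45, -0.49 and -0.54 on the short arrays, the lowest short mean of the 70 at -0.49. The locus has 6 probes, of which this one met the rule, and the other 5 had long means from -0.70 to -0.21.

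The cell wall genes were all close to the limit. Os04g0674800, a cellulase of glycoside hydrolase family 9 (GH9), had long ratios of -1.07, -0.59 and -1.03 and short ratios of -0.21, -0.21 and -0.09. Os10g0555700, of the beta-expansin type known as grass pollen allergens (proteins that loosen walls), had -1.06, -0.57 and -1.04, against -0.23, -0.15 and -0.39. For Os04g0472200, a fasciclin domain protein listed with the arabinogalactan proteins (AGP), the values were -0.96, -0.59 and -0.95, against -0.34, -0.48 and -0.60.

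In all 3, long replicate 2 was the highest of the long arrays, and in the last gene it lay within the range of the short arrays. The other 3 probes of Os10g0555700 were brighter and had long means between -0.66 and -0.62. None of 17 tested GH9 loci, 36 expansin loci and 15 AGP loci was called lower after long exposure (0.611% of all tested loci, limma). Higher calls were made for 2 expansin loci (1.89% of all tested loci). Without the fold limit 7 GH9, 8 expansin and 1 AGP loci were lower and 8, 13 and 9 were higher, where 31.9% of all locus probes were lower. The share of all locus probes that were higher is not given, so the higher counts have no background.

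**Figure D3:**
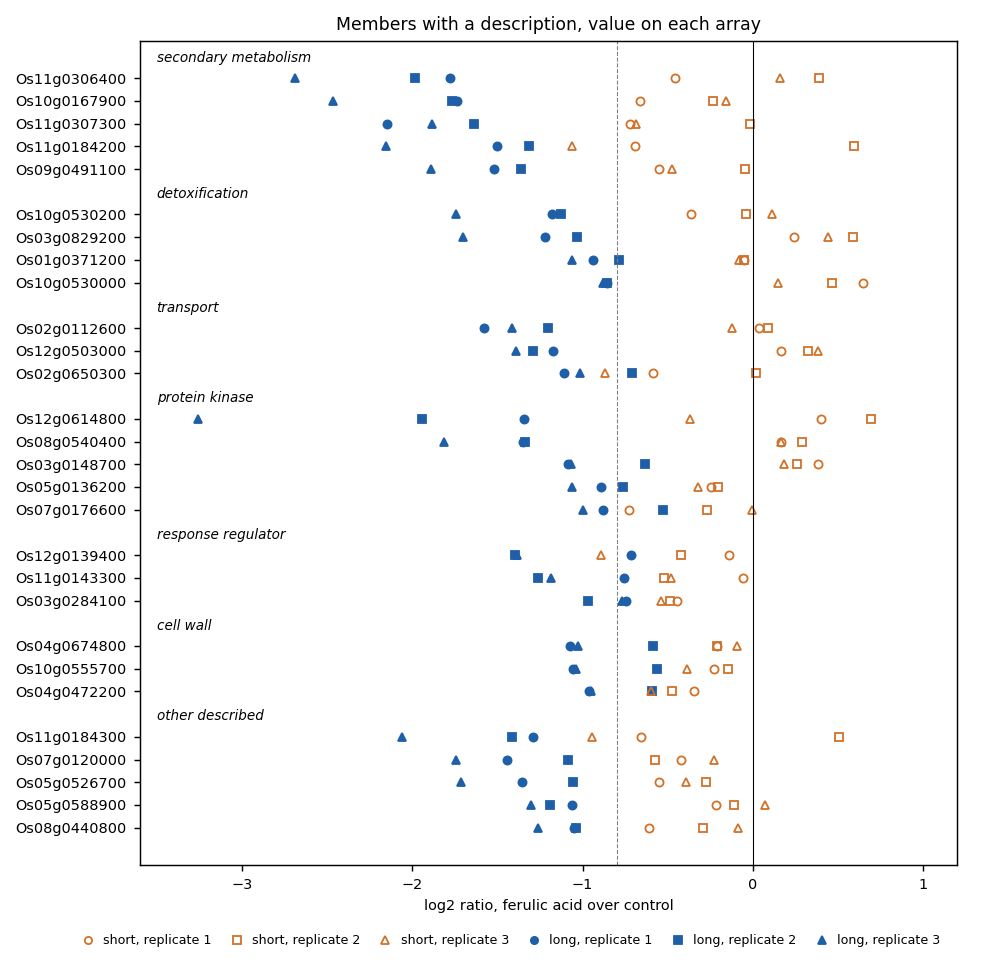
Log2 ratio (FA over control, x axis) on each of the 6 arrays for the 28 loci with a description, grouped by product (rows); open orange symbols are short arrays, filled blue symbols long arrays, with 1 symbol shape per replicate number, and the dashed line is the limit of -0.8 for the long mean. Secondary metabolism genes and the kinase Os12g0614800 lie farthest to the left, and long replicate 3 is the leftmost blue symbol in most rows.

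The remaining described loci have mixed functions. Os08g0440800 encodes glyceraldehyde-3-phosphate dehydrogenase, an enzyme of glycolysis, and its 3 probes gave long means of -1.12, -1.05 and -1.22. Os05g0588900 resembles BCS1, which in yeast helps to assemble a complex of the respiratory chain, and had -1.06 and -1.19 on long replicates 1 and 2 and was lowest on replicate 3, with a long mean of -1.18 ± 0.12 (SD, n = 3), against -0.22, -0.11 and 0.07 on the short ones. No long array of either locus reached the range of its short arrays.

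Os05g0526700, with a harpin-induced domain, had -1.35, -1.06 and -1.71 after long and -0.55, -0.28 and -0.39 after short exposure. Os07g0120000, of the DUF538 family, whose function is unknown, had -1.44, -1.09 and -1.74, against -0.42, -0.57 and -0.23. Both were below 0 on all 6 arrays, with the long arrays lower. Os11g0184300, described as a hypothetical protein, is treated with its neighbour below.

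The 42 loci without a description had long means from -1.64 to -0.80 with a median of -0.95, and 16 of them were at -1 or less. The lowest was Os06g0277900, with -1.16, -1.48 and -2.29 on the long arrays and -0.66, 0.75 and -1.19 on the short arrays. Os04g0108900 had -0.97, -1.22 and -1.996, against -0.12, -0.41 and -0.38. The first overlapped between exposures and the second did not.

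Os01g0150500 had long ratios of -0.83, -1.54 and -1.63 and short ratios of 0.03, -0.51 and -0.36. In Os01g0786700 they were -1.54, -0.85 and -1.46, against -0.23, -0.36 and -0.84. Os10g0546100 had -1.48, -0.89 and -1.27, and its short arrays agreed closely at -0.38, -0.37 and -0.32. No long array of these 3 overlapped a short one, although in Os01g0786700 they nearly met. Both channels of Os01g0786700 were well above background on only 1 short array, which was also so for Os09g0329200. Together with the kinase Os12g0614800 (0 short arrays), these are the loci whose short ratio is poorly measured, since the other 67 were well above background in both channels on all 6 arrays.

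The other undescribed loci with a short mean well above 0 were Os05g0405000 (0.48), Os03g0138000 (0.46), Os03g0712800 (0.43), Os08g0551800 (0.36), Os12g0448900 (0.36), Os04g0531100 (0.35) and a set of 3 on chromosome 7. The short arrays of Os03g0712800 disagreed, with ratios of 0.48, -0.01 and 0.81 and control signals of 142, 1165 and 126. Its other probe, which did not meet the rule, had a short mean of 0.89. Os05g0405000 had 0.42, 0.63 and 0.39 on the short and -0.85, -1.06 and -0.71 on the long arrays. All 5 of its probes had long means between -0.88 and -0.67, and 3 of them met the rule. Another probe missed it with a short mean of 0.53, and the last with its long mean of -0.67. These genes changed sign between exposures within a window that was set symmetrically around 0.

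Some of the 70 lay next to each other. In the order of loci on the array, 5 pairs were direct neighbours (Os03g0730400 and Os03g0730500, Os06g0277900 and Os06g0278000, Os10g0530000 and Os10g0530200, Os11g0184200 and Os11g0184300, Os11g0306400 and Os11g0307300), and Os07g0125600, Os07g0126200 and Os07g0126800 were separated by 2 loci each. The last set had log2 ratios of -0.72, -0.76 and -0.73 on long replicate 1, and 0.56, 0.53 and 0.53 on short replicate 1. The loci between them were not low: Os07g0125900 and Os07g0126500 had long means of 0.49 and 0.53, and Os07g0126100 and Os07g0126700 had 0.59 and 0.53. That alternation repeats along the segment, and where the repeated loci are close copies the probes may not tell them apart; sequence similarity was not tested.

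The pairs on chromosomes 11 and 6 had a short-exposure pattern in common. Os11g0184300 had -0.65, 0.51 and -0.94 on the short and -1.29, -1.41 and -2.06 on the long arrays. Os06g0278000 had -0.52, 0.71 and -1.28, against -0.72, -1.23 and -2.15. With their neighbours Os11g0184200 and Os06g0277900, these were the 4 loci of the 70 in which short replicate 2 was above 0.3 while short replicates 1 and 3 were below -0.3. Short replicates 1 and 2 were on the same slide, so the disagreement was within a slide. Their short means near -0.4 put them inside the window although no single short array had such a value. Their place among the 70 rests on short replicate 2.

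**Figure D4:**
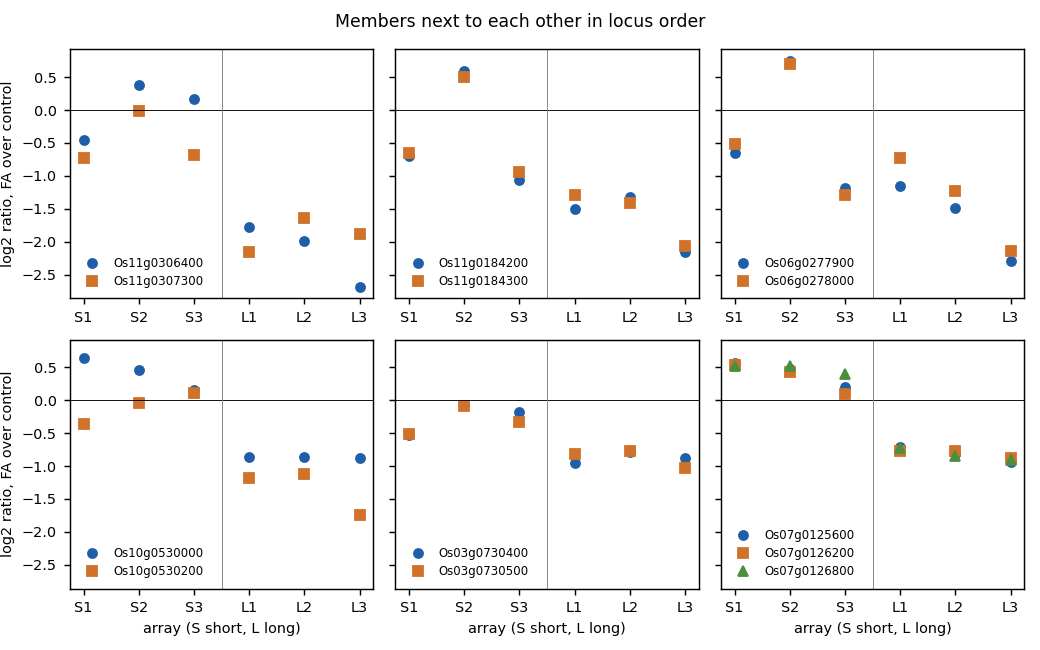
Log2 ratio (FA over control, y axis) on each array (S1 to S3 short, L1 to L3 long replicates) for the 6 sets of loci among the 70 that are close to each other in locus order; each symbol is 1 locus on 1 array. Loci of a set lie close together on most arrays for 4 sets, less so for the pairs that hold Os11g0306400 and Os10g0530200, and the pairs on chromosomes 11 (Os11g0184200 and Os11g0184300) and 6 have short replicate 2 above 0 and the other short arrays below -0.5.

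The loci were spread over all 12 chromosomes, from 2 on chromosome 9 to 9 on chromosome 3. Chromosome 1 held 8.57% of them and 14.04% of all loci on the array, and chromosome 7 held 11.4% of them and 7.88% of all loci.

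Agreement between replicates was uneven. The lowest of the 3 long ratios was on long replicate 3 in 49 loci, on replicate 1 in 16 and on replicate 2 in 5, and the medians over the 70 were -0.97, -0.90 and -1.23 on replicates 1, 2 and 3. Of the 14541 probes at the floor with a long mean below 0, 33.8% were lowest on replicate 3, 40.3% on replicate 1 and 25.9% on replicate 2. The same array was the lowest for 70.9% of the 110 loci that were also low at short exposure, and for 70.0% of the 70. The SD over the long arrays had a median of 0.26 (0.11 over all probes at the floor) and reached 0.5 in 4 loci. Without long replicate 3, 62 loci met the rule, 54 of them among the 70. On the short side, the highest ratio was on replicate 2 in 37 loci, on replicate 1 in 16 and on replicate 3 in 17. The medians over the 70 were -0.24, -0.05 and -0.21 on short replicates 1, 2 and 3, against -0.098, -0.122 and -0.097 over all probes at the floor. Without short replicate 2, 60 loci met the rule, 57 of them among the 70.

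The ratio alone does not say which sample moved, so the 2 channels were compared between exposures after scaling the arrays to a common distribution of brightness (Aquantile). The rule set a floor on the long control signal and limits on both ratios, which favours a rise in the control channel and a fall in the FA channel, so the values are a description of the loci chosen. The control signal was higher after long than after short exposure in 50 of the 70 loci, with a median difference of 0.32 on the log2 scale (50.7% of all tested locus probes). The FA signal was lower in 59, with a median of -0.64 (47.6% of all tested locus probes). Both held together in 39 loci (15.1% of all tested locus probes), 11 were higher in both channels and 20 were lower in both. Over all 28244 tested locus probes the medians were 0.01 and 0.03.

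Single genes differed in kind. In Os12g0614800 the control signal was higher by 2.90 after long exposure, in Os11g0307300 by 1.67 and in Os11g0306400 by 1.23, and 10 loci in all had a rise of at least 1 (2.86% of all tested probes did). In 17 loci the FA signal fell by 1 or more (7.11% of all tested probes), as for GSTU26, at -1.28, where the control channel was level at -0.03. Exposure, time after transfer, seedling age at harvest and slide changed together here, so they cannot be told apart in a single channel. All long arrays were on 1 slide and the short arrays on 2 others. In bulk root RNA, fewer cells that express a gene and less RNA per cell cannot be told apart either.

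**Figure D5:**
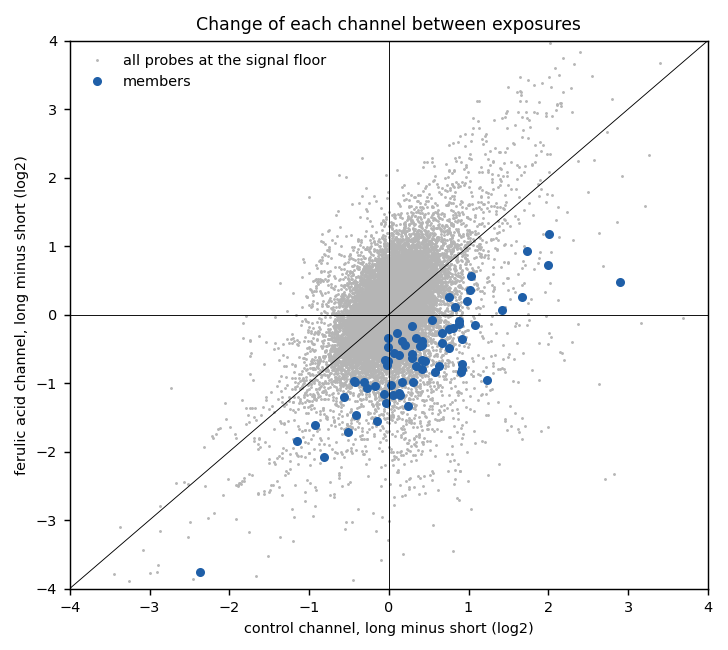
Difference in log2 signal between long and short exposure in the control channel (x axis) and the FA channel (y axis), each the mean of 3 arrays minus the mean of 3 arrays after Aquantile scaling, for all probes at the signal floor (grey, cropped to 4 units) and the 70 loci (blue); the diagonal is an equal change in both. The limits of the rule place every blue point below the diagonal, and 39 of the 70 are in the quadrant with a higher control and a lower FA signal.

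Of 6 root markers, 5 were well above background in the control channel on all 6 arrays (the sixth, SCR1, on none), as were 0 of 4 green shoot markers. The green shoot marker CAB1R was so on 3 arrays. Its control signal was 81.2, 535 and 119 on short replicates 1, 2 and 3 and 9.37 to 35.2 on the long arrays. Summed over the green shoot markers, the control signal was 147 to 593 on the short and 75.5 to 217 on the long arrays. The root markers also differed between exposures. Their summed control signal was 115882 to 145856 on the short and 84538 to 109116 on the long arrays, and the silicon transporter genes Lsi1 and Lsi2 had log2 ratios of -0.89 and -0.70 after short and 0.46 and 0.34 after long exposure (means, n = 3). RCc3, the brightest of these markers, had a control signal of 85832 to 125990 on the short and 51198 to 73181 on the long arrays, with ratios of 0.58 and 0.68. The lower sum came from RCc3, and other root markers had a higher control signal on the long arrays. Lsi1 went from 13957 to 25845 up to 27522 to 31708, and Lsi2 from 912 to 1866 up to 2154 to 3247. The phosphate exporter gene PHO1-2 went from 1345 to 2190 up to 3296 to 3672. For SHR1 and SCR1 the ranges overlapped. The part of these shifts in the ratios of the 70 loci was not tested. Of 4 root hair markers, OsCSLD1 was on the array, well above background on all arrays, with a log2 ratio of -0.96 ± 0.23 after long and -0.55 ± 0.24 after short exposure (SD, n = 3 each). It was not among the 70, and its part in their ratios was not tested. Of 18 root architecture genes named by the study, 14 were on the array, 13 were tested after long exposure, 0 were called and 0 were among the 70. Their long means ran from -0.96 to 0.25. Without the fold limit 6 were lower and 2 higher at an adjusted p under 0.1 (limma), where 31.9% of all locus probes were lower.

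Loci with several probes gave a check within the array, though not an independent one, because the probes share the labelled RNA. There were 30 such loci with 49 further probes. Of these, 14 also met the rule and 35 did not, 8 of them below the signal floor. The 27 at the floor all had a long mean below 0, from -1.14 to -0.26. The widest disagreements of all came from probes below the floor, in Os03g0730500 (-0.88 against 0.62), Os03g0829200 (-1.32 against 0) and Os04g0108900 (-1.40 against -0.40). The widest disagreement at the floor was in Os12g0503000 (-1.28 against -0.42 in another probe), in Os01g0390300 (-1.03 against -0.27) and in Os12g0583500 (-0.91 against -0.26). In 59 of the 70 loci the brightest probe of the locus met the rule.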

How the data were processed

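The authors labelled FA-treated RNA with Cy5 and control RNA with Cy3 and extracted spots with Agilent Feature Extraction (version 10.7.1.1 per the file headers; the methods name another version). The deposited log10 ratio is red over green after background subtraction, spatial detrending and linear and LOWESS dye normalization. The deposited intensity of each channel is processed in the same way, with raw medians beside it, and the deposited value table holds log2 ratios that the authors made from these. The deposited flags, 0 or 1, mark spots well above background, non-uniform or saturated.

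Here the ratio was converted to log2 and spots of a probe were averaged. Per array, 68.2% to 75.5% of probes had a control signal well above background and no probe was saturated; the number of arrays limits the precision. Models were fitted with limma 3.58.1 (R 4.3.3), without marked spots, on probes with a signal of 100 in either channel on at least 1 array and a ratio on at least 2. Adjustment was over all tested probes. The fits were tested on simulated data with 200 changed probes. A ratio against 0 is open to dye bias, because dyes were not swapped; a bias equal on all arrays cancels in long minus short.

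The rule and the gene lists were chosen with earlier results of these data known. Genes named are the 20 lowest loci, loci in a list of the supplementary tables, probes in disagreement, loci nearest the limit, and root architecture genes; others named were chosen after their values were seen. Lists by words in gene descriptions were not counted, since 4973 of 29690 loci had a description and part of these were picked on these arrays. Alternatives included centring, normexp correction of raw medians (offset 50) and loess, the value table, other filters, the methods' t-test, replicate and slide blocks, and each array left out. The authors' own comparisons were not used. Versions: Python 3.11.15, pandas 2.3.3, numpy 2.4.6, matplotlib 3.10.9.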

Additional observations from a re-analysis of the deposited data

Results flagged for a closer look

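Of the 14 root architecture genes on the array, 2 were called lower in the direct comparison of exposures on all 6 arrays. The limits were an adjusted p under 0.1 (limma) and at least 2-fold, and 5.72% of all tested loci were called lower. WOX11 (Os07g0684900), a transcription factor of crown root growth, was 1.27 ± 0.31 after short and 0.12 ± 0.27 after long exposure (log2 ratio, SD, n = 3 each), a difference of -1.15 (adjusted p = 0.0040). Its control signal was dim, at 114 to 184 over the 6 arrays. AUX/IAA-1 (Os01g0178500), an auxin response repressor, was 0.91 ± 0.02 and -0.26 ± 0.15 (SD, n = 3 each), a difference of -1.17 (adjusted p = 0.00028). The root markers Lsi1 and Lsi2, silicon transporter genes, moved the other way, with differences of 1.36 (adjusted p = 0.00073) and 1.04 (adjusted p = 0.0020), and OsRR6 (Os04g0673300) had a difference of -1.44 in the same comparison. Among the 70 loci, 33 were called lower there, for which they had been chosen.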

How the results depend on the processing

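The count of 70 loci was 59 under normexp and loess (43 of the 70 among them), 73 with arrays centred on their median (59 shared), 70 with the value table (70 shared), 68 without marked spots, 53 with a floor of 200 and 59 through the brightest probe. All 27 loci lost under normexp and loess had a long mean above -0.8 there. All 70 stayed below 0, the highest at -0.44, and 18 of the 20 lowest loci still met the rule. With no floor the count was 193, with a long mean of -1 or less 34, with a short mean within 0.3 33, and with 1 array left out 60 to 102. The 34 loci called lower after long exposure were 20 by the methods' t-test, 20 under normexp and loess, 69 without the 2-fold limit, and 28 to 44 with 1 array left out. Over all locus probes the 138 lower calls became 85, 74 and 8599 under these settings, 239 with no signal filter, 88 with a signal of 100 in both channels on every array, and 115 to 182 with 1 array left out. At short exposure 46 of the loci passed without the fold limit, and the 630 lower calls over all probes became 1012 with no filter, 161 under normexp and loess, 345 with a signal of 100 on every array and 10900 without the fold limit. In long minus short, the 33 calls were 21 and the 1635 over all probes 910 with that signal filter, and 25 to 35 and 1462 to 1671 with 1 array left out. In the lists that hold any of the 70, 6 loci were called lower, 122 without the fold limit and 5 to 10 with 1 array left out (10 without long replicate 2). By list, the methods' t-test left 0 cytokinin signalling and 0 WAKa loci, and normexp and loess left 0 MFS loci. The replicate number as a block gave 33 calls among the loci and 1650 over all probes, and changed neither count by over 1.5 times. Correlations of same-numbered deviations were -0.08, -0.01 and 0.14, and those of other pairs ran from -0.24 to 0.26. With 3 arrays per exposure they cannot tell whether same-numbered arrays were paired. Slide as a random block gave 33 and 1644; it could not be fitted for long exposure alone, whose arrays share 1 slide. The channel medians stayed between 0.26 and 0.35 (control) and -0.72 and -0.56 (FA).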

Other observations

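Of 510 microRNA probes on the array, 1 met the parts of the rule other than the locus name. It is directed at osa-miR169j, and was chosen after its values were seen. Its log2 ratios were -1.01, -1.11 and -1.03 on the long arrays and -0.28, -0.33 and -0.28 on the short arrays, with a control signal of 167 on average after long exposure. The exposures did not overlap.

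The root architecture genes, none of which is among the 70, had long means in this order from low to high, through the brightest probe of each: OsCSLD1 (-0.96), AUX/IAA-13 (-0.68), ARF-16 (-0.52), AUX/IAA-11 (-0.49), AUX/IAA-29 (-0.36), AUX/IAA-1 (-0.26), AUX/IAA-23 (-0.10), OsAPY1 (-0.07), OsCRL4 (-0.06), WOX11 (0.12), OsEXPB5 (0.15), OsCRL1 (0.21), OsCel9C (0.25). None was called by limma after long exposure. By the adjusted p alone 6 were lower and 2 higher, where 31.9% of all locus probes were lower.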
